A study of Mus musculus with 6 samples.

Results

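The solute carriers are the transporters whose symbols begin with Slc or Slco. They were taken from a single-colour bead array as every probe whose gene symbol starts that way, followed by a digit, and which was detected (detection p under 0.05) on at least 3 of the 6 arrays. By this rule 182 of 475 such probes were kept, which stand for 137 of 320 solute carrier genes, out of 11578 probes and 8652 genes that passed the same detection rule on the whole array. The cells were hepatic progenitor cells isolated from livers of C57BL/6 mice, grouped as Met fl/fl (3 arrays) and Egfr fl/fl (3 arrays). In both groups the gene named, Met (the hepatocyte growth factor receptor) or Egfr (the epidermal growth factor receptor), is flanked by loxP sites and is described as a control, so neither gene is labelled as deleted in either group. Age, sex, the number of animals and the number of separate isolations were not given in the sources used here, so the p-values below measure only the spread between these arrays.

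Solute carriers move ions, nutrients, metals, nucleotides and organic anions across the plasma membrane and the membranes of organelles, without burning ATP themselves. Most run downhill or are coupled to gradients of sodium, protons or chloride, so they work beside the sodium-potassium pump, carbonic anhydrases and the kinases that set ion carrier activity. In liver, hepatocytes carry the bile acid, organic anion and glucose carriers of the blood-facing membrane, while the bile duct epithelium is known for chloride-bicarbonate exchange that adds bicarbonate to bile.

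Of the 137 genes, 62 (45.3%) differed between the groups at an adjusted p under 0.05 (limma's moderated test on the brightest probe of each gene, Benjamini-Hochberg over all 11578 probes). The background is high: 41.4% of all 8652 genes passed the same test. Of the 62, 41 were higher and 21 lower in Met fl/fl, where 22.8% of all genes were higher and 18.6% lower. Met fl/fl thus took 66.1% of the solute carrier calls, and 55.1% of the calls over all genes. This split depends on the scaling, since median scaling in place of quantile normalization gave 23 genes higher and 18 lower in Met fl/fl, or 56.1% higher, against 48.0% of the calls over all genes under that scaling. The median difference (Met fl/fl minus Egfr fl/fl, log2 scale) was 0.22 over the 137 genes and 0.067 over all genes, and the median size of the difference was 0.45 and 0.41. The values of the 2 groups did not overlap for 76 of the 137 genes (55.5%), against 52% of all genes. An exact permutation test of 3 arrays against 3 cannot give a p below 0.1, so the calls rest on the variance that limma pools across probes.

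Most of the called differences were under 2-fold. A fitted difference of at least 2-fold was reached by 23 of the 62 called genes, 14 higher and 9 lower in Met fl/fl. Over all genes it was reached by 1361 of 3580 called genes. Set against tested genes, these are 23 of 137 solute carriers and 15.7% of all genes (7.7% higher and 8.03% lower). Of the 137 genes, 108 were detected on all 6 arrays, and 50 of the called genes were among them. Detection of a further 7 called genes failed on every array of the dimmer group, and for these the fold is a lower bound, taken against the dimmest detected signal.

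Hepatic progenitor identity was read from marker genes. Of 11 biliary and progenitor markers, 10 had a probe and 8 were detected on all 6 arrays, among them Krt7, Krt19 and Sox9, while Prom1 was detected on none. Among the hepatocyte markers Alb, Cyp3a11 and Cps1 were detected on no array, whereas Ttr and Hnf4a were detected on all 6. The summed normalized intensity of the progenitor markers was 17273 to 19053 on Met fl/fl arrays, against 25433 to 28376 on Egfr fl/fl arrays, and 4 of them were lower in Met fl/fl (Krt7, Krt8, Krt18 and Sox9). Hepatocyte markers summed to 4409 to 5481 on Met fl/fl arrays and 2731 to 3531 on Egfr fl/fl arrays, and 5 of the 10 were detected on no array. Of these hepatocyte markers 2 were higher (Apoa1 and Hnf4a) and 1 lower (Serpina1a) in Met fl/fl, and Ttr, which made up most of the sum, did not pass. Mesothelial markers summed to 1335 to 1525 on Met fl/fl arrays and 266 to 390 on Egfr fl/fl arrays, with 1 of 4 higher and 1 lower in Met fl/fl. Msln, the higher one, made up most of the sum in both groups, whereas Gpm6a was lower (difference -1.30). Leukocyte markers summed to 1138 to 1298 on Met fl/fl arrays and 357 to 508 on Egfr fl/fl arrays, while 4 of 7, Ptprc, Clec4f, Emr1 and Lyz2, were detected nowhere. Nearly all of that sum was Cd14, which was higher in Met fl/fl, whereas Csf1r was lower (difference -0.75). Stellate cell markers summed to 31.3 to 38.9 on Met fl/fl arrays and 49.5 to 54.0 on Egfr fl/fl arrays, with 5 of 9 detected nowhere, and endothelial markers to 20.2 to 56.1 on Met fl/fl arrays and 5.36 to 29.3 on Egfr fl/fl arrays, with 5 of 7 detected nowhere. The part of these shifts in the solute carrier differences was not tested, and in bulk RNA fewer cells of a type and less RNA per cell cannot be told apart. Between 171 and 186 of the 475 solute carrier probes were detected on each array, and the mean deposited intensity was 275 to 398 on Met fl/fl arrays and 241 to 321 on Egfr fl/fl arrays. No slide or hybridization batch was given in the sources used here, so a batch that followed the genotype cannot be told apart from it.

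**Figure D1:**
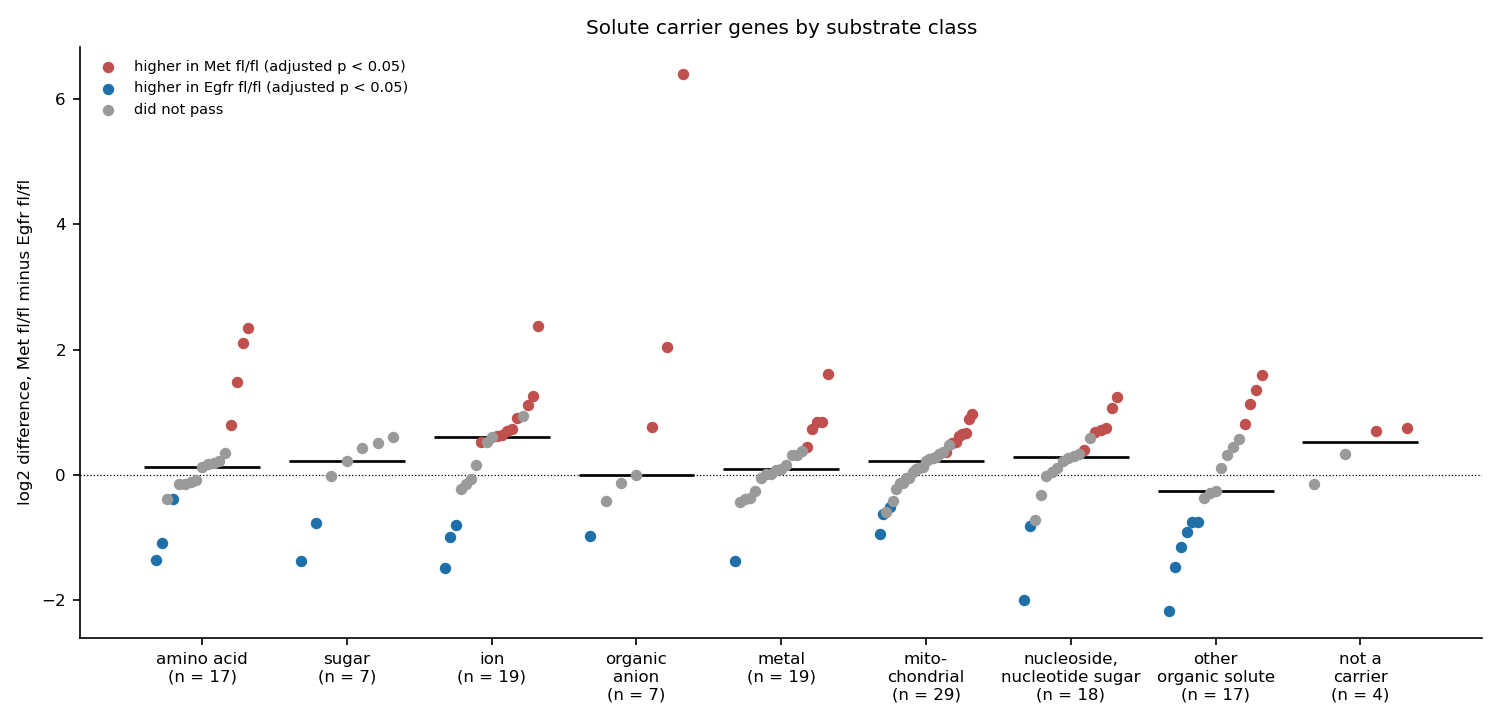
Log2 difference (Met fl/fl minus Egfr fl/fl, y axis) of each of the 137 tested solute carrier genes, by substrate class and in order of size within a class. Red points passed with a higher level in Met fl/fl, blue points passed with a higher level in Egfr fl/fl, grey points did not pass, and bars are class medians, 0.60 for ion carriers and -0.25 for other organic solute carriers.

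By substrate class, 12 of 19 ion carrier genes (63.2%) were called. The other organic solute carriers had 10 of 17 genes called (58.8%), the organic anion carriers 4 of 7 (57.1%) and the nucleoside and nucleotide sugar carriers 8 of 18 (44.4%). The amino acid carriers had 7 of 17 called (41.2%), the mitochondrial carriers 11 of 29 (37.9%), the metal carriers 6 of 19 (31.6%) and the sugar carriers 2 of 7 (28.6%). The last 4 shares are below the 41.4% of all genes. The median difference was 0.60 in the ion carriers and -0.25 in the other organic solute carriers. Neither the order of the shares nor that of the medians was kept under every setting: median scaling called 5 ion carriers higher and 3 lower of 19, and 4 other organic solute carriers higher and 5 lower of 17. The share of all genes called was 27.5% under median scaling and 29.9% to 51.2% when an array was left out. Class counts given below for these settings stand against those shares, not against 41.4%. Without the detection filter the medians of the ion and other organic solute carriers were 0.0398 and 0.00648.

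**Figure D2:**
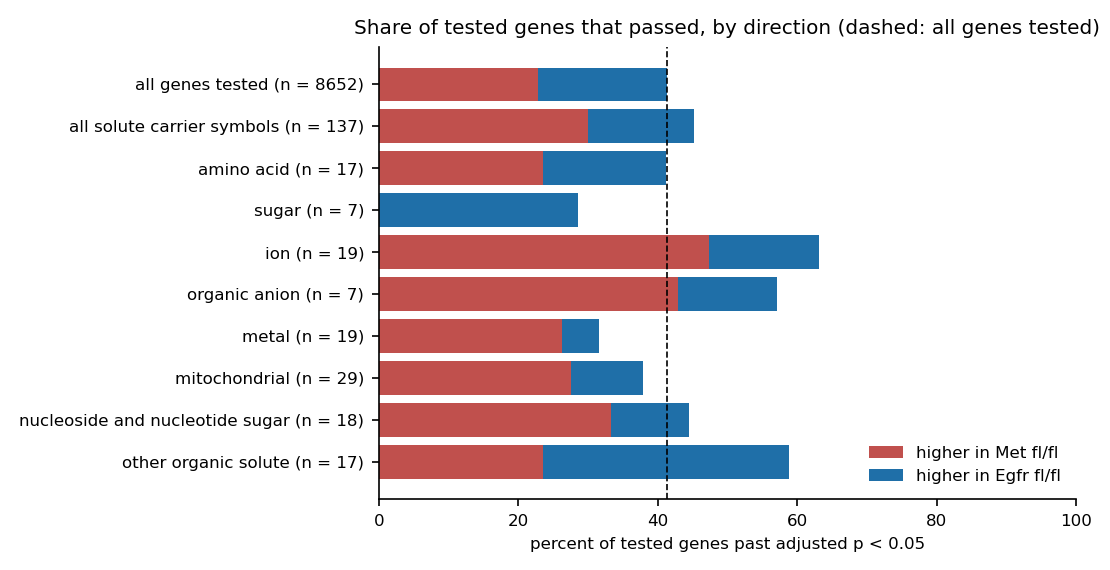
Share of tested genes called (percent, adjusted p under 0.05) in each substrate class, split into genes higher in Met fl/fl (red) and in Egfr fl/fl (blue), beside the same over all 8652 genes. The ion carriers had 63.2% of their genes called and the sugar carriers 28.6%, against 41.4% of all genes.

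The regions upstream of 3 genes with large differences are shown so that the letters around their starts can be read beside the values that follow: Slco4a1, the gene with the largest difference, Slc36a1, among the largest higher in Met fl/fl, and Slc44a3, with the largest fitted difference towards Egfr fl/fl. The sequences are RefSeq's, on GRCm38.p6, 250 bases ending at the base before an annotated start, read 5′ to 3′ on the strand of the gene. Slco4a1 has 2 annotated starts, whose windows are chr2:180455995-180456244 and chr2:180460728-180460977 on the plus strand. The window of Slc36a1 is chr11:55204090-55204339 on the plus strand and that of Slc44a3 is chr3:121532345-121532594 on the minus strand. Capitals mark exact matches, on either strand, to the GC box GGGCGG, the E-box CACGTG and the TEAD motif GGAATG.
Slco4a1 start 1: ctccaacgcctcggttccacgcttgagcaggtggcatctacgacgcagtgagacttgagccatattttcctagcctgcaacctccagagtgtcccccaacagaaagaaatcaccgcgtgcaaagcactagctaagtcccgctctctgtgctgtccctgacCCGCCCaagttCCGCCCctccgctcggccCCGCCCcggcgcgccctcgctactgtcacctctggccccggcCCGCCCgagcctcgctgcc
Slco4a1 start 2: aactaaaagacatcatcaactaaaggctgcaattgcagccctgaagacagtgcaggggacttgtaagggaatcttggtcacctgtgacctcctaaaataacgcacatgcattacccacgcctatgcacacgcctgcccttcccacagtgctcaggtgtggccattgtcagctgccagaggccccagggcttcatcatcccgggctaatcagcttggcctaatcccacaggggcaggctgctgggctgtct
Slc36a1: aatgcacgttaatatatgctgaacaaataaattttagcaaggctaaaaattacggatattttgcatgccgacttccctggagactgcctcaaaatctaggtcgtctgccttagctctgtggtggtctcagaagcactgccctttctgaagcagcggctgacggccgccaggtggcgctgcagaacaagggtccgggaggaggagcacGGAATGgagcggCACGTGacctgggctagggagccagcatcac
Slc44a3: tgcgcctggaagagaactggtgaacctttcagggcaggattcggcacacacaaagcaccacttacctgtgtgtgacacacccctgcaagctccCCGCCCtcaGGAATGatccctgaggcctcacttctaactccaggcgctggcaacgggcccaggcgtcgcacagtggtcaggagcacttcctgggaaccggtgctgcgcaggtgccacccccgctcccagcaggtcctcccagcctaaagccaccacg
The first Slco4a1 window holds 4 GC boxes, which begin 90, 79, 61 and 19 bases before the start, and the second window holds none. In Slc36a1 a TEAD motif lies 43 bases and an E-box 31 bases before the start, and in Slc44a3 a GC box lies 157 bases and a TEAD motif 148 bases before it. No match overlapped another. Windows were present for 112 of the 137 genes (156 windows). The GC box stood in 60.0% of the 40 windows of genes higher in Met fl/fl, in 59.3% of the 27 windows of genes higher in Egfr fl/fl and in 69.7% of the 89 windows of genes not called, against 32.7% of all 32851 windows. The E-box was in 10%, 11.1% and 14.6% of these windows and in 6.02% of all, and the TEAD motif in 12.5%, 18.5% and 13.5% and in 12.6% of all. The CCAAT box, CCAAT, was in 37.5% of the windows of genes higher in Met fl/fl, 18.5% of those higher in Egfr fl/fl, 33.7% of those not called and 33.9% of all. The windows of all genes include genes not tested on these arrays, so they are an unlike background for the tested carriers. The shares are counts of letters and say nothing of binding.

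Organic anion carriers held the largest difference of all, in a member of the Slco family. Slco4a1, which encodes OATP4A1, an uptake carrier for thyroid hormone and conjugated steroids in human, had log2 intensities of 10.78, 10.86 and 11.03 on the Met fl/fl arrays, against 4.42, 4.54 and 4.53 on the Egfr fl/fl arrays. The signal was well above background on every Met fl/fl array and detected on no Egfr fl/fl array, so the groups were far apart. Met fl/fl exceeded Egfr fl/fl by at least 63.1-fold (fitted difference 6.40 ± 0.16 (SE), limma adjusted p = 4.4e-09). Slco2a1, the prostaglandin uptake carrier, had 11.34, 11.44 and 11.43 in Met fl/fl, against 9.27, 9.01 and 9.84 in Egfr fl/fl, with all 3 Met fl/fl arrays above all Egfr fl/fl arrays. It was 4.1-fold higher in Met fl/fl (difference 2.04 ± 0.19, limma adjusted p = 2.96e-05). Slco3a1, a related organic anion carrier, went the other way, with 10.42, 10.78 and 10.86 in Met fl/fl against 11.50, 11.57 and 11.90 in Egfr fl/fl. All of its Met fl/fl values lay below all of its Egfr fl/fl values, and it was 1.96-fold lower in Met fl/fl (-0.97 ± 0.16, adjusted p = 0.000878). Its further 2 probes gave -1.54 and -1.12, both past the threshold. These 3 were the tested genes among the 13 Slco genes on the array. Outside the family, Slc17a5, the lysosomal sialic acid exporter sialin, averaged 8.05 ± 0.21 in Met fl/fl, against 7.29 ± 0.16 in Egfr fl/fl (SD, n = 3 each) and was 1.69-fold higher (adjusted p = 0.00866). That call was lost under median scaling (adjusted p = 0.0892) and without Met fl/fl replicate 2 (0.0506). The blood-facing bile acid and anion carriers of hepatocytes, Slc10a1 and Slco1b2, and the bile acid carrier Slc10a2 of bile duct and gut epithelium were detected on no array.

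**Figure D3:**
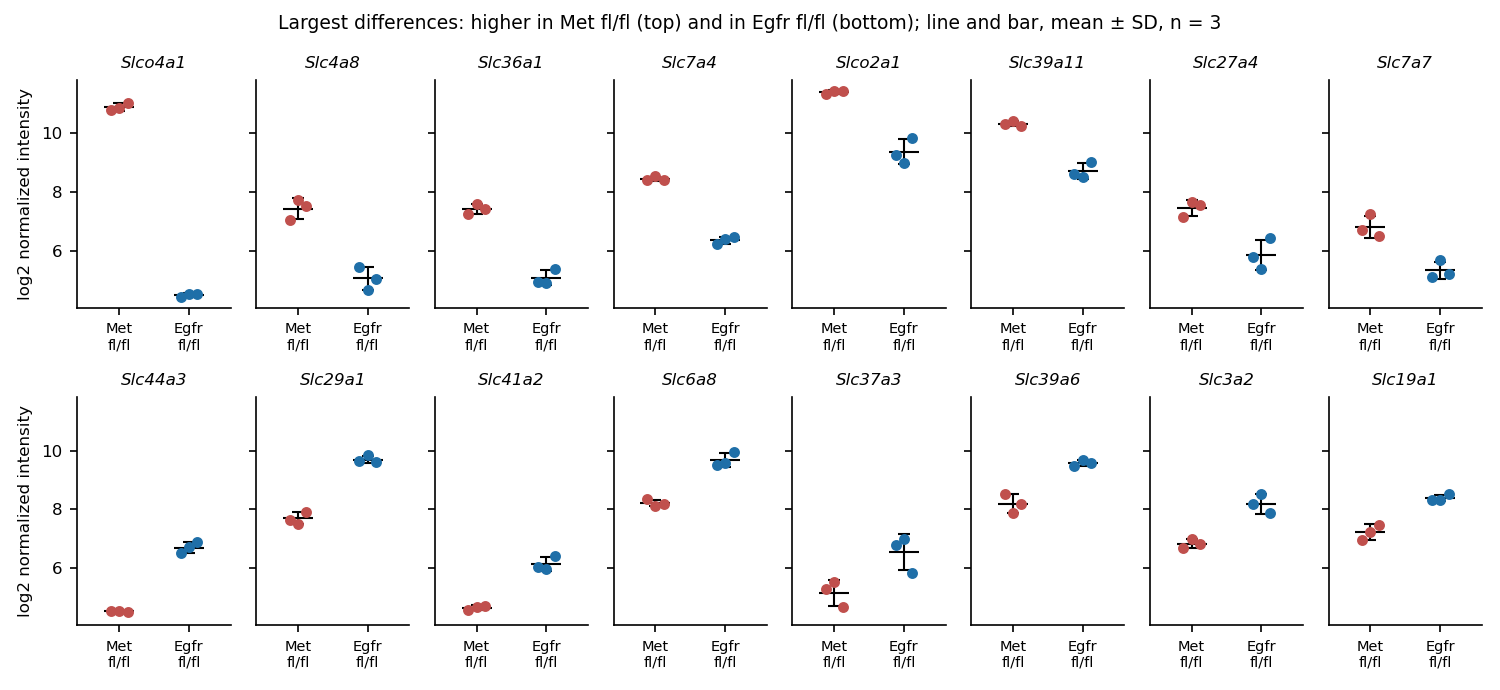
Normalized log2 intensity (y axis) on each array for the 8 genes with the largest called, non-overlapping difference in each direction, with Met fl/fl arrays left of Egfr fl/fl arrays, points for arrays, long lines for means and whiskers for the SD. The genes were chosen for groups that do not overlap, and the widest gap is in Slco4a1, 10.78 to 11.03 in Met fl/fl against 4.42 to 4.54 in Egfr fl/fl.

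Among the amino acid carriers, 4 were higher and 3 lower in Met fl/fl, and 10 of the 17 did not pass. Slc36a1, the proton-coupled amino acid carrier PAT1 of the plasma and lysosomal membranes, read 7.24, 7.59 and 7.43 in Met fl/fl, against 4.94, 4.92 and 5.38 in Egfr fl/fl. The Met fl/fl values stood well clear, and the gene was 5.07-fold higher (2.34 ± 0.21, limma adjusted p = 1.86e-05). Slc7a4, a relative of the cationic amino acid carriers with no settled substrate, read 8.40, 8.54 and 8.43 in Met fl/fl, against 6.22, 6.39 and 6.46 in Egfr fl/fl, again without overlap, and was 4.28-fold higher (2.10 ± 0.17, adjusted p = 1.14e-05). Slc7a7 encodes y+LAT1, a light chain that exports basic amino acids once it is bound to the heavy chain 4F2hc. It read 6.72, 7.24 and 6.49 in Met fl/fl, against 5.12, 5.68 and 5.22 in Egfr fl/fl and was 2.78-fold higher (1.48 ± 0.24, adjusted p = 0.00107), and its second probe gave 1.61. The heavy chain itself, Slc3a2, read 6.68, 6.98 and 6.84 in Met fl/fl, against 8.18, 8.54 and 7.86 in Egfr fl/fl. It was 2.57-fold lower in Met fl/fl without overlap (-1.36 ± 0.21, adjusted p = 0.000688), so this light chain and its heavy chain were called in opposite directions.

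Slc1a4, the neutral amino acid exchanger ASCT1, read 5.88, 5.99 and 6.15 in Met fl/fl, against 7.10, 6.86 and 7.32 in Egfr fl/fl, a separation of 2.13-fold with the lower level in Met fl/fl (-1.09 ± 0.20, adjusted p = 0.00187). Slc6a6, the taurine carrier, read 12.75, 12.63 and 12.78 in Met fl/fl, against 13.17, 13.10 and 13.03 in Egfr fl/fl. The groups did not overlap, and its 1.3-fold lower level in Met fl/fl (adjusted p = 0.0145) was lost under median scaling (adjusted p = 0.260) and without Met fl/fl replicate 2 (0.0748), Egfr fl/fl replicate 1 (0.0809) or Egfr fl/fl replicate 2 (0.0535). Slc38a2, the glutamine and neutral amino acid carrier SNAT2, differed by -0.11 ± 0.16 and did not pass (adjusted p = 0.609). Slc7a11, the cystine-glutamate exchanger that also uses the 4F2hc heavy chain, differed by -0.15 ± 0.17 (adjusted p = 0.536) and was detected on 1 Met fl/fl and 2 Egfr fl/fl arrays. Slc1a5, the glutamine carrier ASCT2, was detected on no array, and Slc7a5 was not analysed here.

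Of the 19 ion carriers tested, 9 were higher and 3 lower in Met fl/fl. Under median scaling, and without Egfr fl/fl replicate 1, these counts were 5 and 3. Slc4a8, a sodium-driven chloride-bicarbonate exchanger, read 7.04, 7.72 and 7.54 in Met fl/fl, against 5.45, 4.68 and 5.05 in Egfr fl/fl. It was detected on all 3 Met fl/fl arrays and on 2 of the Egfr fl/fl arrays, and was 5.17-fold higher in Met fl/fl (2.37 ± 0.26, limma adjusted p = 7.4e-05), while its second probe gave 0.90. The Met fl/fl values all lay above the Egfr fl/fl values.

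Slc12a2, the sodium-potassium-chloride cotransporter NKCC1 that loads chloride into secreting epithelia, read 10.48, 10.49 and 10.63 in Met fl/fl, against 9.79, 9.84 and 10.04 in Egfr fl/fl. It was 1.56-fold higher in Met fl/fl (adjusted p = 0.00286; 0.0516 under median scaling), and its second probe gave 1.36. Slc4a2, the chloride-bicarbonate exchanger AE2 of the bile duct, read 10.51, 10.88 and 10.91 in Met fl/fl, against 9.98, 9.96 and 10.52 in Egfr fl/fl, where Egfr fl/fl replicate 3 exceeded Met fl/fl replicate 1. Its 1.53-fold higher level (adjusted p = 0.0204) was lost under median scaling (0.0666) and when Met fl/fl replicate 2, Met fl/fl replicate 3, Egfr fl/fl replicate 1 or Egfr fl/fl replicate 2 was left out (0.0763 to 0.0866). Slc4a2 and Slc38a9, a lysosomal arginine carrier that differed by 0.80 ± 0.26 on its brightest probe and 0.10 on its second, were the 2 called solute carriers whose groups overlapped, and Slc38a9 is named after its values were seen. In the Slc12 family 3 of 6 tested members were higher and 0 lower in Met fl/fl. By symbol, Slc4 likewise had 3 of 4 tested genes higher and 0 lower. Over all genes 22.8% were higher and 18.6% lower, and families this small are too few to read a direction from. Among the higher Slc4 genes, moreover, is Slc4a1ap, an adaptor that is not a carrier.

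The 3 ion carriers lower in Met fl/fl all move cations. Slc41a2, a magnesium carrier, read 4.57, 4.68 and 4.72 in Met fl/fl, where no array detected it, and 6.03, 5.98 and 6.41 in Egfr fl/fl, where all 3 did. It was at least 2.28-fold lower in Met fl/fl (fitted difference -1.48 ± 0.18, limma adjusted p = 0.000135). Slc8a1, the sodium-calcium exchanger NCX1, read 5.06, 5.40 and 5.49 in Met fl/fl, against 6.28, 6.42 and 6.22 in Egfr fl/fl, without overlap, and was 1.98-fold lower (-0.99 ± 0.19, adjusted p = 0.00227). Slc24a3, a potassium-dependent sodium-calcium exchanger, averaged 4.87 ± 0.27 in Met fl/fl, against 5.67 ± 0.07 in Egfr fl/fl and was 1.75-fold lower (adjusted p = 0.00527), with detection on 1 Met fl/fl array and all 3 Egfr fl/fl arrays.

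The genes that work with the ion carriers were read from a list of 88 partners and regulators, of which 47 were tested, 17 being higher and 13 lower in Met fl/fl, where 22.8% of all genes were higher and 18.6% lower. The balance was not stable, at 11 higher and 12 lower under median scaling and without Met fl/fl replicate 2, and 11 and 11 without Met fl/fl replicate 3. Their median difference was 0.17. For the sodium-potassium pump, which builds the gradient most of these carriers use, 4 of 5 tested subunit and regulator genes were higher and 0 lower in Met fl/fl. By value, and named after the values were seen, Atp1b1 differed by 1.02, Atp1b3 by 0.34 and Fxyd5 by 1.42, while Fxyd1 gave -0.47 and did not pass. Both tested carbonic anhydrases, which supply bicarbonate and protons, were higher, with Car13 at 7.67 ± 0.09 in Met fl/fl, against 5.48 ± 0.14 in Egfr fl/fl, a 4.59-fold difference (limma adjusted p = 1.31e-05). The other, Car2, is named after its values were seen and passed only narrowly (limma adjusted p = 0.0483). It was detected on no Egfr fl/fl array, and its excess in Met fl/fl was at least 1.23-fold. Tesc, a calcium-binding protein listed with the carrier regulators, averaged 7.15 ± 0.18 in Met fl/fl, against 4.81 ± 0.29 in Egfr fl/fl (SD, n = 3 each). It was higher in Met fl/fl (adjusted p = 2.03e-05), and no fold is given because it was detected on 3 Met fl/fl arrays and only 1 Egfr fl/fl array. Stk39, the kinase SPAK that activates NKCC1 and inhibits the potassium-chloride cotransporters, was detected on no Met fl/fl array and on all Egfr fl/fl arrays. It was at least 5.51-fold lower in Met fl/fl (adjusted p = 4.55e-05). Of the 10 tested kinases and regulators, 3 were higher and 4 were lower in Met fl/fl. The scaffold NHERF1, Slc9a3r1, which carries a solute carrier symbol but binds carriers to the cytoskeleton, read 10.46, 9.93 and 10.26 in Met fl/fl, against 9.39, 9.43 and 9.57 in Egfr fl/fl, and was 1.68-fold higher (adjusted p = 0.00396). Pdzk1ip1, a small membrane protein that binds carrier scaffolds, was at least 31.3-fold lower in Met fl/fl, with detection on 0 Met fl/fl and 3 Egfr fl/fl arrays (adjusted p = 6.68e-08).

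**Figure D4:**
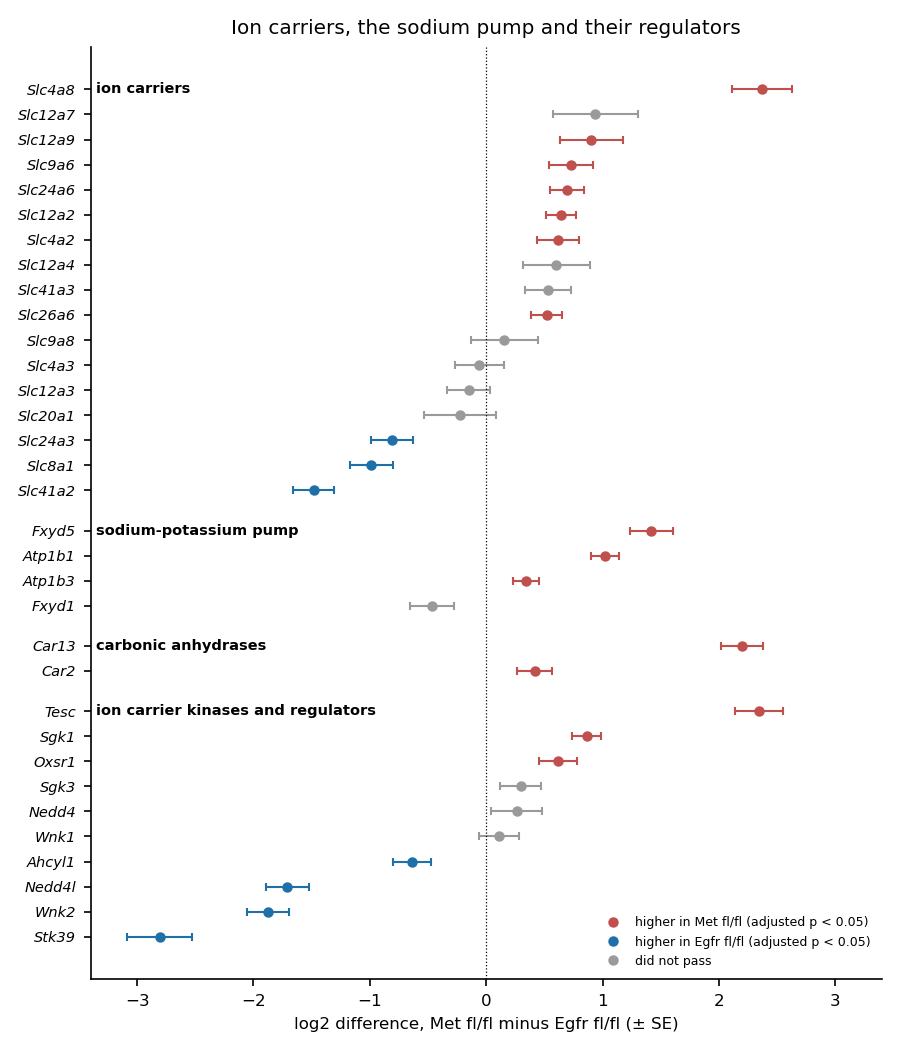
Log2 difference (x axis, Met fl/fl minus Egfr fl/fl, with SE bars) of tested ion carriers and of tested sodium-potassium pump, carbonic anhydrase and carrier kinase genes, each gene a line. Red marks genes higher in Met fl/fl, blue marks genes higher in Egfr fl/fl and grey those that did not pass. Slc4a8 at 2.37 and Tesc at 2.34 lie farthest right and Stk39 at -2.81 farthest left, where its fold is a lower bound.

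Metal carriers had 5 of 19 genes higher and 1 lower in Met fl/fl and a median difference of 0.094. Under median scaling 2 were higher and 1 lower, and without Egfr fl/fl replicate 3 it was 7 and 2. Slc39a11, a zinc importer of internal membranes known as ZIP11, read 10.31, 10.42 and 10.24 in Met fl/fl, against 8.62, 8.51 and 9.01 in Egfr fl/fl. The groups lay more than a unit apart, and the gene was 3.06-fold higher in Met fl/fl (1.61 ± 0.16, limma adjusted p = 3.7e-05). Slc40a1, the iron exporter ferroportin, read 11.68, 11.62 and 11.54 in Met fl/fl, against 10.91, 10.93 and 10.45 in Egfr fl/fl and was 1.8-fold higher (0.85 ± 0.15, adjusted p = 0.00132). Slc30a1, the zinc exporter ZnT1, averaged 6.88 ± 0.18 in Met fl/fl, against 6.05 ± 0.01 in Egfr fl/fl and was 1.79-fold higher (adjusted p = 0.00531; 0.0854 under median scaling). In the opposite direction, Slc39a6, the zinc importer ZIP6, read 8.54, 7.86 and 8.19 in Met fl/fl, against 9.46, 9.68 and 9.57 in Egfr fl/fl. It was 2.6-fold lower in Met fl/fl without overlap (-1.38 ± 0.18, adjusted p = 0.000283). The iron importers did not pass: Slc11a2 (DMT1) differed by -0.43 ± 0.22 (adjusted p = 0.145), and Slc39a14 (ZIP14), detected on 2 Met fl/fl and 1 Egfr fl/fl arrays, by 0.16 ± 0.15 (adjusted p = 0.431). Of the 7 tested iron-handling partners 1 was higher and 3 were lower in Met fl/fl. Trf, the plasma iron carrier transferrin, averaged 9.50 ± 0.07 in Met fl/fl, against 12.35 ± 0.04 in Egfr fl/fl and was 7.22-fold lower (adjusted p = 6.45e-08).

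Mitochondrial carriers, the Slc25 family, had 29 of 40 genes tested, and 0 of them were called with a 2-fold difference. Of these, 8 were higher and 3 lower in Met fl/fl, their differences ran from -0.95 to 0.97, and 37.9% were called against 41.4% of all genes. Under median scaling 2 were higher and 1 lower. Single arrays moved the counts as well, to 3 and 1 without Met fl/fl replicate 2 or 3, 4 and 1 without Egfr fl/fl replicate 1 and 4 and 3 without Egfr fl/fl replicate 2. Slc25a1, which exports citrate for lipid synthesis, read 9.17, 9.41 and 9.56 in Met fl/fl, against 8.18, 8.34 and 8.72 in Egfr fl/fl and was 1.96-fold higher (0.97 ± 0.18, limma adjusted p = 0.00214), with 0.87 on its second probe. Slc25a20, the acylcarnitine carrier of fatty acid oxidation, read 10.16, 9.75 and 9.60 in Met fl/fl, against 9.02, 9.04 and 8.80 in Egfr fl/fl on its brighter probe, 1.85-fold higher (0.89 ± 0.17, adjusted p = 0.00249). Its second probe gave -0.52 and did not pass, and the mean of the probes gave 0.18 (adjusted p = 0.599), so the call rests on the brighter probe. Slc25a38, a glycine carrier that feeds heme synthesis, averaged 9.35 ± 0.16 in Met fl/fl, against 8.68 ± 0.04 in Egfr fl/fl and was 1.59-fold higher (adjusted p = 0.00424; 0.0691 under median scaling).

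Calls on the 3 genes of this family that were lower in Met fl/fl each depended on a setting or on single arrays. Slc25a24, the calcium-regulated ATP-magnesium and phosphate carrier, read 7.93, 7.31 and 7.10 in Met fl/fl, against 8.58, 8.57 and 8.04 in Egfr fl/fl. It was 1.93-fold lower (-0.95 ± 0.24, limma adjusted p = 0.0117), and without Met fl/fl replicate 2, Met fl/fl replicate 3 or Egfr fl/fl replicate 1 the adjusted p rose to between 0.05004 and 0.0568. Slc25a36, a pyrimidine nucleotide carrier, averaged 5.70 ± 0.31 in Met fl/fl, against 6.32 ± 0.26 in Egfr fl/fl, 1.54-fold lower at an adjusted p of 0.0473. That call was lost under 9 of the settings tried (adjusted p 0.0508 to 0.191), among them leaving out Met fl/fl replicate 2 or 3 or Egfr fl/fl replicate 1 or 2. Slc25a17, a member that sits in the peroxisome, averaged 9.41 ± 0.04 in Met fl/fl, against 9.93 ± 0.11 in Egfr fl/fl and was 1.43-fold lower (adjusted p = 0.00871; 0.206 under median scaling). Slc25a5, the ADP/ATP carrier ANT2, differed by 0.12 ± 0.11 (adjusted p = 0.419) and Slc25a37, the iron importer mitoferrin-1, by 0.04 ± 0.20 (adjusted p = 0.893). Slc25a4, the muscle-type ADP/ATP carrier ANT1, was detected on no more than 2 arrays and was not tested.

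Nucleoside and nucleotide sugar carriers had 6 genes higher and 2 lower in Met fl/fl of 18 tested. Under median scaling 4 were higher and 3 lower, and leaving out Met fl/fl replicate 2 or 3 or Egfr fl/fl replicate 1 or 2 gave 4 to 6 higher and 1 lower. Slc29a1, the equilibrative nucleoside carrier ENT1, showed the largest fall, reading 7.65, 7.51 and 7.91 in Met fl/fl, against 9.65, 9.84 and 9.60 in Egfr fl/fl. No value of one group came near the other, and the gene was 4.01-fold lower in Met fl/fl (-2.00 ± 0.16, limma adjusted p = 9.69e-06). The rises came from the Slc35 family of the endoplasmic reticulum and Golgi, which had 15 of 20 genes tested. Of these 15, 6 were higher and 1 lower in Met fl/fl, against 22.8% and 18.6% of all genes. Slc35e1, whose substrate is not settled, read 8.95, 9.11 and 9.10 in Met fl/fl, against 7.75, 7.55 and 8.15 in Egfr fl/fl and was 2.36-fold higher (1.24 ± 0.18, adjusted p = 0.00052). Slc35a2, the UDP-galactose carrier of the Golgi, read 7.72, 7.50 and 7.46 in Met fl/fl, against 6.55, 6.30 and 6.64 in Egfr fl/fl and was 2.09-fold higher (1.06 ± 0.19, adjusted p = 0.00156). Slc35a5, from the same subfamily, averaged 5.64 ± 0.23 in Met fl/fl, against 4.90 ± 0.10 in Egfr fl/fl, 1.67-fold higher (adjusted p = 0.00723). It was detected on 2 of the Egfr fl/fl arrays, and without Met fl/fl replicate 1 or 2 its difference was 0.13 (adjusted p = 0.582) or 0.27 (0.315), read from its second probe, which was then the brighter and gave 0.18 over all arrays. Slc35a3, the UDP-N-acetylglucosamine carrier, averaged 5.67 ± 0.37 in Met fl/fl, against 6.48 ± 0.32 in Egfr fl/fl, 1.76-fold lower (adjusted p = 0.0231). Leaving out Met fl/fl replicate 2 or 3 or Egfr fl/fl replicate 1 or 2 raised its adjusted p above the threshold, to 0.0515 to 0.103.

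Of the 17 tested carriers of other organic solutes, 4 were higher and 6 were lower in Met fl/fl. Slc44a3, a choline-like carrier protein, read 4.55, 4.54 and 4.50 in Met fl/fl, where it was detected on no array, and 6.50, 6.71 and 6.88 in Egfr fl/fl, where it was detected on all 3. It was at least 3.36-fold lower in Met fl/fl (fitted difference -2.17 ± 0.17, limma adjusted p = 9.59e-06). Slc6a8, the creatine carrier, read 8.35, 8.13 and 8.17 in Met fl/fl, against 9.52, 9.58 and 9.94 in Egfr fl/fl and was 2.76-fold lower (-1.46 ± 0.16, adjusted p = 7.45e-05). Slc19a1, the reduced folate carrier, read 6.95, 7.24 and 7.48 in Met fl/fl, against 8.31, 8.33 and 8.51 in Egfr fl/fl and was 2.23-fold lower (-1.16 ± 0.19, adjusted p = 0.000898). All 3 genes separated the groups without overlap.

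The 3 largest rises of that class in Met fl/fl were carriers of fatty acids, vitamins and peptides. Slc27a4, the fatty acid transport protein FATP4, read 7.14, 7.66 and 7.57 in Met fl/fl, against 5.78, 5.40 and 6.42 in Egfr fl/fl and was 3.01-fold higher (1.59 ± 0.27, limma adjusted p = 0.00137). Slc5a6, the sodium-coupled carrier of biotin and pantothenate, read 7.32, 7.35 and 7.55 in Met fl/fl, against 5.78, 5.96 and 6.44 in Egfr fl/fl and was 2.54-fold higher (1.35 ± 0.22, adjusted p = 0.000919). Slc15a2, the peptide carrier PEPT2, read 6.00, 5.46 and 5.64 in Met fl/fl, where all 3 arrays detected it, and 4.70, 4.48 and 4.53 in Egfr fl/fl, where none did. The excess in Met fl/fl was at least 1.72-fold (adjusted p = 0.000854).

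Sugar carriers had no gene higher and 2 genes lower in Met fl/fl of 7 tested. Without Met fl/fl replicate 1 the counts were 1 higher and 2 lower, and without Egfr fl/fl replicate 3 they were 2 and 2. Slc2a1, the glucose carrier GLUT1 of growing and ductal cells, read 9.91, 10.21 and 10.25 in Met fl/fl, against 10.77, 10.71 and 11.18 in Egfr fl/fl. It was 1.7-fold lower in Met fl/fl without overlap (-0.76 ± 0.16, limma adjusted p = 0.00395). Slc37a3, of the sugar phosphate exchanger family, read 5.28, 5.53 and 4.66 in Met fl/fl, against 6.80, 6.97 and 5.84 in Egfr fl/fl, with detection on 2 and 3 arrays. It was 2.6-fold lower in Met fl/fl (-1.38 ± 0.32, adjusted p = 0.00698), whereas its second probe gave -0.21 and did not pass. Slc2a2, the hepatocyte glucose carrier GLUT2, was detected on no more than 1 array with any of its 3 probes. The lactate carriers Slc16a1, detected on no array, and Slc16a3, detected on at most 2, were likewise not tested. Emb, the membrane chaperone embigin of the monocarboxylate carriers, averaged 9.50 ± 0.17 in Met fl/fl, against 7.94 ± 0.22 in Egfr fl/fl and was 2.96-fold higher (adjusted p = 6.72e-05).

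Not every gene with a solute carrier symbol is a transporter. Of the 4 such genes set apart, 2 were higher in Met fl/fl and 0 were lower: the scaffold Slc9a3r1 described above, and Slc4a1ap, the adaptor named for its binding to the anion exchanger AE1. Slc4a1ap averaged 8.68 ± 0.31 in Met fl/fl, against 7.98 ± 0.21 in Egfr fl/fl, 1.62-fold higher (limma adjusted p = 0.0174), and was lost under median scaling (0.0963) and without Met fl/fl replicate 1 (0.0604).

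Where a gene had several probes, these could be set against each other. In 8 of the 34 genes that had several tested probes every probe was called in the same direction, in 0 were probes called in opposite directions and in 13 was no probe called. In 11 genes the probes differed in sign, none of them with calls on both sides.

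**Figure D5:**
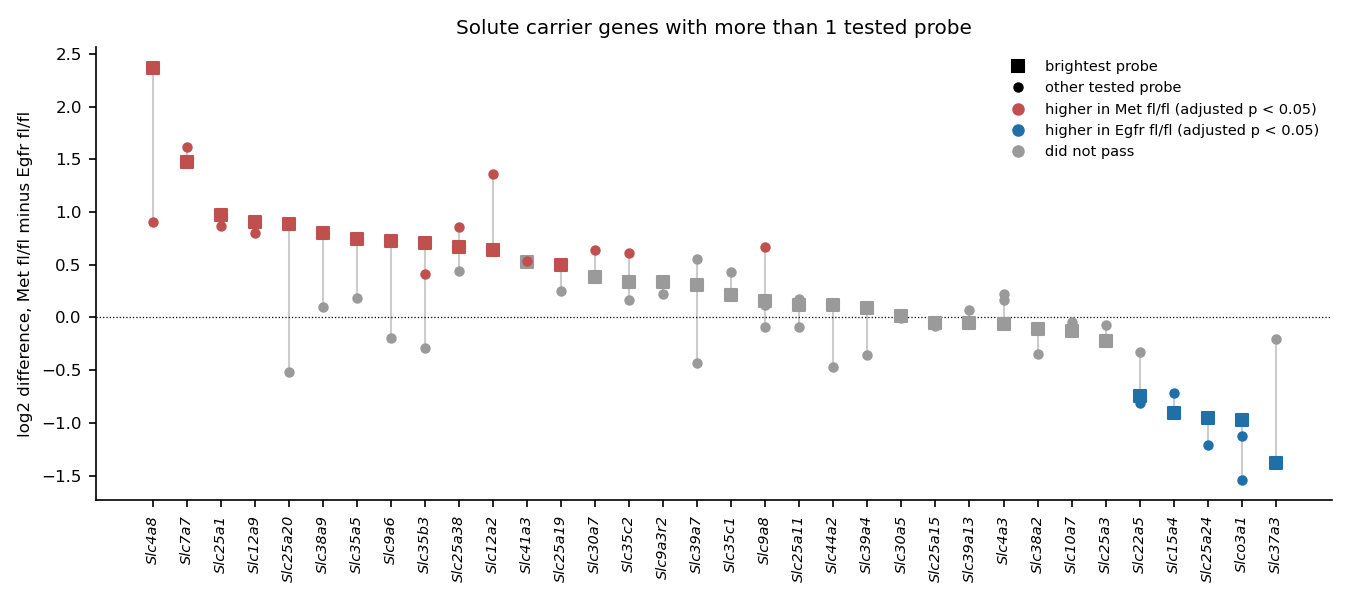
Log2 difference (Met fl/fl minus Egfr fl/fl, y axis) of every tested probe of the 34 solute carrier genes with more than 1 tested probe, each gene a column joined by a grey line. Squares are the brightest probe, circles the others, red passed with a higher level in Met fl/fl, blue with a higher level in Egfr fl/fl, and grey did not pass. No column holds both red and blue.

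The detection rule left out 183 solute carrier genes, and of the 46 families on the array 9 had no tested gene. The thinnest families were the monocarboxylate carriers Slc16, with 1 of 12 genes tested, the sodium-glucose family Slc5, with 1 of 12, and the sodium- and chloride-coupled family Slc6, with 3 of 18. At the threshold, 23 probes were detected on exactly 3 arrays, 5 of them on just the Met fl/fl arrays and 3 on just the Egfr fl/fl arrays, with a median deposited intensity of 12.2 (7.26 to 1031). Just outside it, 19 probes detected on 2 arrays had a median of 9.47 (4.87 to 12.5).

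Egfr fl/fl replicate 3 lay nearer the Met fl/fl mean than the mean of the other Egfr fl/fl arrays in 6 of the 62 called genes (9.68%), among them Slc37a3 and Slc4a2. These genes were called with this array in the fit, which favours a low share, so the share cannot tell how typical the array is. Without this array 54 genes were higher and 23 lower in Met fl/fl, and all 62 genes kept their calls. Calls over all genes then rose from 41.4% to 51.2%.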

How the data were processed

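Biotinylated cRNA from 6 samples was hybridized to single-colour Illumina bead arrays. Per the submitters' processing notes, GenomeStudio 2011.1 was used; the array model was not given in the sources used here. Per the file headers, the authors deposited a table of non-normalized intensity with a detection p-value per probe and array, and a second table of normalized intensity. Many deposited intensities lie below 0, so background had been subtracted already. From the non-normalized intensity, normexp correction used negative-control level and spread inferred from the deposited detection p-values, followed by an offset of 16, quantile normalization and log2 (limma 3.58.1 in R 4.3.3). Probes detected (p under 0.05) on at least 3 arrays entered lmFit and eBayes (variance trend on), with the group as the only term, and p-values were adjusted over all 11578 probes; each gene was read from its brightest probe. The procedure was tested on simulated data. The number of arrays, 3 a group, limits the precision.

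Symbols were used as the file gives them, and all 137 genes matched the current RefSeq table (1 symbol had changed). A further 10 tested genes carry an Slc symbol only in the current table and were left out. Substrate classes, partner lists and members were chosen with earlier results of these data known. The genes named are the 8 with the largest called, non-overlapping difference in each direction, up to 3 called genes in each direction of each class, a list fixed for known roles in liver, bile duct or growing cells, and up to 3 partners in each direction; those named outside this rule are said to be, and some genes within it are not reported here. Alternatives tried were the background correction, normalization, offset, detection filter, variance model, probe rule, adjustment, replicate block and leaving out each array. Normalized intensity from the authors was used for marker sums and as an alternative.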

Additional observations from a re-analysis of the deposited data

How the results depend on the processing

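Counts of called solute carrier genes kept their lean towards Met fl/fl under the 19 settings compared. Median scaling gave 23 genes higher in Met fl/fl and array weights gave 64, against 41, while leaving out each array in turn gave 29 to 54 higher and 17 to 23 lower in Met fl/fl. Calls over all genes moved as well, from 41.4% to 27.5% under median scaling and 61.5% under array weights. They were 29.9% to 51.2% when an array was left out. Over all genes, median scaling gave 1145 higher and 1238 lower in Met fl/fl, and array weights gave 2953 and 2364. An offset of 50 gave the ion carriers a median difference of 0.34. Without the detection filter the median was 0.0398 for ion carriers, -0.0136 for sugar carriers and 0.0158 for nucleoside and nucleotide sugar carriers, since undetected genes then enter. Detection at p under 0.01 on all 6 arrays, which left 97 genes, gave -0.13 for amino acid, 0.47 for sugar, 0.38 for organic anion and 0.12 for other organic solute carriers. Sugar carriers had 0.40 under array weights and 0.11 to 0.42 when an array was left out. The cause of these shifts, other than the number of genes entering, was not tested. None of the 43 named genes that were called changed direction, while the medians of the amino acid, sugar and other organic solute carriers changed sign as given. The organic anion median, -0.00016 in the main fit, changed sign too. It was 0.38 under the strict detection rule above and 0.064 without Met fl/fl replicate 1.

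Whether the replicate numbers pair the arrays is not known. The deviations of same-numbered arrays correlated at 0.24, -0.15 and 0.32, and Met fl/fl replicate 1 correlated best with Egfr fl/fl replicate 2 (0.34). In groups of so few arrays the deviations depend on each other, so these correlations cannot decide whether arrays were paired. The fit with the replicate number as a block called 46 genes higher and 22 lower in Met fl/fl, 61 of them shared with the 62. Of 49 named genes that were tested, 43 were called and 30 of these kept their call in every setting that tested them. Of the 30, 20 were tested in all 19 settings and 10 were not tested under strict detection. The offset of 50, which shrinks dim probes most, brought Slc44a3 to -1.27, Slc41a2 to -0.82 and Slc15a2 to 0.58, each still called.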

Other observations

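Transcription factors and stress regulators known to act on solute carrier genes were part of the partner list but stand in no class, and these are named after their values were seen. Hnf4a, the hepatocyte nuclear factor, was higher in Met fl/fl by 1.43 on the log2 scale, Srebf2, the sterol regulator, by 0.86 and Nr1h4, the bile acid receptor FXR, by 0.77. Lower in Met fl/fl were Nfe2l2, the oxidative stress factor NRF2, with a difference of -1.40, Myc with -1.23 and Atf4, the factor of the amino acid response, with -0.93. Txnip, which promotes removal of GLUT1 from the membrane, differed by -1.15 and Nedd4l, a ubiquitin ligase of ion transporters, by -1.71. These 8 were chosen because they passed limma's test. Of the 8 tested genes listed as transcription factors of carriers, 3 were higher and 2 lower in Met fl/fl and 3 did not pass, against 41.4% of all genes called.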
